A study of Macaca mulatta with 23 samples.

Results

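The entry of a resting T cell into the cell cycle is controlled by a small set of proteins at the border between G1 and S phase, and 10 of their genes are described here in sorted CD8+ effector memory T cells (TEM) of rhesus macaques. They are the D-type cyclin genes CCND2 and CCND3, the pocket protein genes RBL2 and RB1, the kinase genes CDK4 and CDK6, the kinase inhibitor genes CDKN1B and CDKN2D, the E-type cyclin gene CCNE1 and the transcription factor gene E2F1. The 10 were taken by gene symbol from the 20046 genes that the array annotation names, together with all of their 14 probes. The list was chosen with earlier results of the same arrays known, and it was selected on measured values for CCND2, whose level was lower after anti-IL-15, and RBL2, whose level was lower after the control antibody. These comparisons are therefore given as descriptions with no test. Which values led to the choice of the other members is not stated, so their tests may also rest on a choice made on these data.

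As background, D-type cyclins bind CDK4 and CDK6 and carry signals from cytokine and antigen receptors to the cell cycle. The active kinases phosphorylate the pocket proteins, which in their unphosphorylated form hold E2F factors back, and released E2F factors induce cyclin E and the genes of DNA synthesis. Inhibitors such as the products of CDKN1B and CDKN2D act on the kinases, and in T cells cytokines of the common gamma chain family, to which interleukin-15 (IL-15) belongs, promote both D-type cyclin expression and passage into S phase.

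The macaques received an antibody against IL-15 or an IgG1 control antibody, and RNA of CD8+ TEM sorted from peripheral blood mononuclear cells was measured before and after treatment. The control arm had 6 arrays before and 6 after, and the anti-IL-15 arm had 5 before and 6 after. The replicates are separate animals, 12 in all, of which 11 had both arrays. Anti-IL-15 animal 3 had an array after treatment only, so it enters the levels after treatment and adds nothing to the change. The labels give neither age, dose nor the interval between the samples, and the cells were a sorted population of unstated purity.

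Each array detected 11263 to 14132 of 47230 probes at a detection p-value under 0.05 against its negative control beads. The same RNA mass entered each amplification, so a level stands for a share of that mass, and fewer cells of a type and less RNA per cell cannot be told apart in these bulk samples. CD3D, CD3G and CD8A were detected on 23 of 23 arrays, CD8B on 9, CD3E on 1 and CD4 on 0. The probes were designed for human transcripts, and a mismatch to the macaque sequence can lower a reading. Among markers of other cells, CD14, HBB and HBA1 were detected on all 23 arrays, CD79A on 20, PPBP on 18, CD79B on 17, MS4A1 on 11 and LYZ on 8. Of the naive and central memory markers, IL7R was detected on 23 arrays, LEF1 on 17 and CCR7 on 3. FOXP3 was detected on 4 and CTLA4 on 2. No gene of these lists passed the test in either arm except CD8A, which fell by 0.77 with the control antibody (log2, SE 0.14, limma adjusted p = 0.0104). The summed log2 level of the 4 tested CD3 and CD8 genes ran from 14.4 to 14.7 before and 14.1 to 14.6 after the control antibody, and from 14.2 to 14.5 before and 14.3 to 14.5 after anti-IL-15. The sums of the 3 tested B cell genes (6.46 to 8.50), the 2 myeloid genes (5.97 to 7.32) and the 3 erythrocyte and platelet genes (8.60 to 14.3) overlapped between all 4 groups, with S100A8 and S100A9 each detected on 1 array and PF4 on 0. Within animals, some markers of other cells nevertheless moved without passing the test. HBB had a fitted change of -0.73 with anti-IL-15 (0 of 5 animals higher, limma adjusted p = 0.211) and 0.85 with the control antibody (4 of 6 higher, adjusted p = 0.0713), a difference of -1.58 (SE 0.38, adjusted p = 0.292). LEF1 had -0.47 (0 of 5 higher) and 0.42 (5 of 6 higher), CD14 had -0.52 (2 of 5 higher) and 0.26 (5 of 6 higher), and CD79B had 0.12 (3 of 5 higher) and 1.25 (5 of 6 higher, adjusted p = 0.0659). Other genes of these lists did not all go the same way. In the same order, CD79A had -0.35 and -0.19, and MS4A1 had 0.03 and 0.14. With anti-IL-15, 1 of the 2 myeloid genes and 1 of the 3 erythrocyte and platelet genes had fitted changes above 0. With the control antibody all genes of both these lists were above 0.

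Detection decided which members could be followed. Of the 14 probes, 8 were detected on all 23 arrays, 2 on none, and 10 passed the filter of detection on at least 5 arrays, which left 8 of the 10 members for the tests. The CDK6 probe, for a kinase partner of the D-type cyclins, read 78 to 108 intensity units with a lowest detection p-value of 0.171 and was detected on 0 of 23 arrays. The RB1 probe, for the founding pocket protein, read 84 to 120 units and was detected on 1 array of the control arm before treatment and on 1 of the anti-IL-15 arm after it. Both genes are therefore without a measured level in nearly every sample, and both were left out of the tests.

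A pair of probes was present for 4 members, and the pairs differed in detection. For CDKN2D, 1 probe was detected on every array and the other on none. For CCNE1, 1 probe was detected on every array and the other on 2. For CDKN1B, both probes passed the filter, with detection on 22 and 23 arrays. For CCND2, the probe used was detected on all arrays and the second probe on 19, with 6 of 6 and 5 of 6 arrays in the control arm and 5 of 5 and 3 of 6 in the anti-IL-15 arm. Where both passed, the probe with the higher mean stands for the gene.

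**Figure D1:**
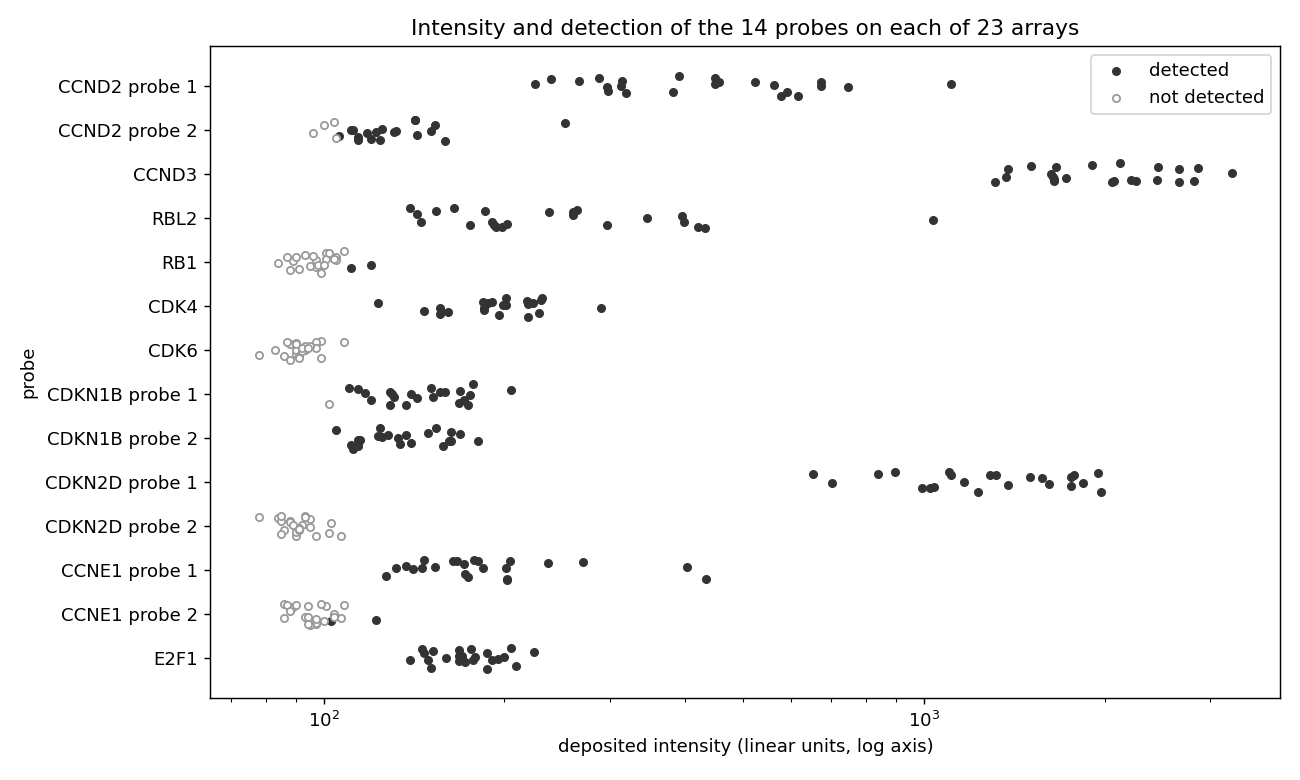
Deposited intensity (linear units on a log axis) of the 14 probes of the 10 genes on each of 23 arrays, with filled points where the probe was detected at a detection p-value under 0.05 and open points where it was not. The CDK6 probe and the second CDKN2D probe have no filled point, and RB1 and the second CCNE1 probe have 2 each. Positions of different probes on the axis are not comparable as levels.

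CCND2 encodes cyclin D2, the D-type cyclin that cytokine receptors induce through STAT5 in lymphocytes. Its level in log2 units before anti-IL-15 was 8.63 in animal 1, 8.94 in animal 2, 8.79 in animal 4, 8.82 in animal 5 and 8.87 in animal 6. After anti-IL-15 the levels ran from 7.40 to 8.11 with a median of 7.81 over 6 animals. All 6 levels after treatment lay below all 5 levels before it. In the control arm the levels ran from 7.79 to 9.37 before (median 8.90) and from 7.80 to 8.99 after (median 8.58), and these ranges overlapped almost completely. Control animal 3 stood lowest at both times, at 7.79 and 7.80.

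The CCND2 change within animals after anti-IL-15 was -1.23, -1.17, -0.83, -0.98 and -0.76 in animals 1, 2, 4, 5 and 6. In control animals 1 to 6 it was -0.62, -0.24, 0.00, -0.14, -0.37 and -0.38. The least change with anti-IL-15 was thus larger than the greatest with the control antibody. The fitted change was -0.99 on the log2 scale with anti-IL-15 (SE 0.18, n = 5 pairs), which is 1.99-fold lower. It was -0.29 with the control antibody (SE 0.17, n = 6 pairs), lower in 5 of 6 animals, which did not pass the test (limma adjusted p = 0.358). The difference between the arms, which contains the change the gene was chosen for, was -0.70 (SE 0.25) and is a description. The second probe of CCND2 read lower after treatment in all 5 paired anti-IL-15 animals and in 4 of 6 control animals, with fitted changes of -0.85 (SE 0.25) and -0.53 (SE 0.23), and its arms overlapped. Before treatment the mean CCND2 level was 8.81 ± 0.12 (SD, n = 5) in the anti-IL-15 arm and 8.78 ± 0.53 (SD, n = 6) in the control arm.

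HBB and LEF1 were lower in the same 5 anti-IL-15 animals, by fitted changes of -0.73 and -0.47, and their part in the CCND2 and CCNE1 changes was not tested. Of the 3 tested erythrocyte and platelet genes, HBB among them, 1 had a fitted change above 0 with anti-IL-15. Sorted cell numbers moved with the treatment as well. They were lower after treatment in all 5 paired anti-IL-15 animals and in 4 of 6 control animals. Control animals 5 and 6 were sorted at higher numbers after treatment, and their CCND2 changes were -0.37 and -0.38, against -0.62, -0.24, 0.00 and -0.14 in the 4 control animals with fewer cells. The part of cell number in the CCND2 change was not tested by these few animals. In the anti-IL-15 arm, where cell numbers fell in every pair, cell number and treatment cannot be told apart. With the log2 cell number as a covariate, the CCND2 change with anti-IL-15 was -0.94 with an SE of 0.29, and the gene was no longer among those called. It also left the called genes when anti-IL-15 animal 1 or 2 was left out, at -0.93 and -0.95.

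CCND3 encodes cyclin D3, which works beside cyclin D2 in T cells. Its level in log2 units ran from 10.49 to 10.95 before the control antibody (median 10.62) and from 10.60 to 11.49 after it (median 10.98). It was 10.79, 11.53, 10.65, 10.99 and 10.85 in anti-IL-15 animals 1, 2, 4, 5 and 6 before treatment, and ran from 10.52 to 11.46 after (median 10.99). All 4 groups overlapped. Each of the 6 control animals had a higher level after treatment, by 0.03 to 0.62, but the fitted change of 0.35 did not pass the test (SE 0.15, limma adjusted p = 0.212). With anti-IL-15, 4 of 5 animals had lower levels and animal 4 had a level higher by 0.82, which gave a fitted change of -0.03 (95% interval -0.39 to 0.32, adjusted p = 0.952). The difference of the changes was -0.38 (95% interval -0.86 to 0.10) and did not pass the test.

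RBL2 encodes the pocket protein p130, which with E2F4 represses cell cycle genes in resting cells. Its level in log2 units before the control antibody was 8.22, 7.33, 8.14, 8.17, 8.09 and 9.26 in control animals 1 to 6, and 6.35, 6.14, 6.93, 7.15, 7.27 and 7.93 after it. The level was lower after treatment in 6 of 6 animals, with changes of -1.87 to -0.82. In anti-IL-15 animals 1, 2, 4, 5 and 6 it was 7.37, 6.88, 7.51, 7.64 and 6.83 before, and the 6 animals ran from 6.30 to 7.32 after, with a median of 6.91. Before treatment, 5 of the 6 control levels lay above every level of the anti-IL-15 arm, control animal 2 being the exception, and after treatment the arms overlapped.

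The fitted RBL2 change with the control antibody was -1.24 on the log2 scale (SE 0.20, n = 6 pairs), or 2.36-fold lower. With anti-IL-15 the changes were -0.58, -0.23, -1.22, -0.51 and 0.20 in animals 1, 2, 4, 5 and 6, and the fitted value of -0.47 did not pass the test (SE 0.22, limma adjusted p = 0.326). The difference between the arms, which contains the change the gene was chosen for, was 0.77 (SE 0.30) and is a description. Before treatment the anti-IL-15 arm stood lower by 0.95 (SE 0.29), with means of 7.25 ± 0.37 (SD, n = 5) and 8.20 ± 0.61 (SD, n = 6), so the arm with the larger change started from the higher level. CD8A was also lower in the control arm, by 0.77 with 0 of 6 animals higher, and its part in the RBL2 change was not tested. With the log2 cell number as a covariate the change with the control antibody was -1.115 (SE 0.26) and without control animal 1 it was -1.11 (SE 0.22), and in both settings the gene was no longer among those called. Control animals 5 and 6, sorted at higher cell numbers after treatment, had changes of -0.82 and -1.33, and the part of cell number in the RBL2 change was not tested by them.

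**Figure D2:**
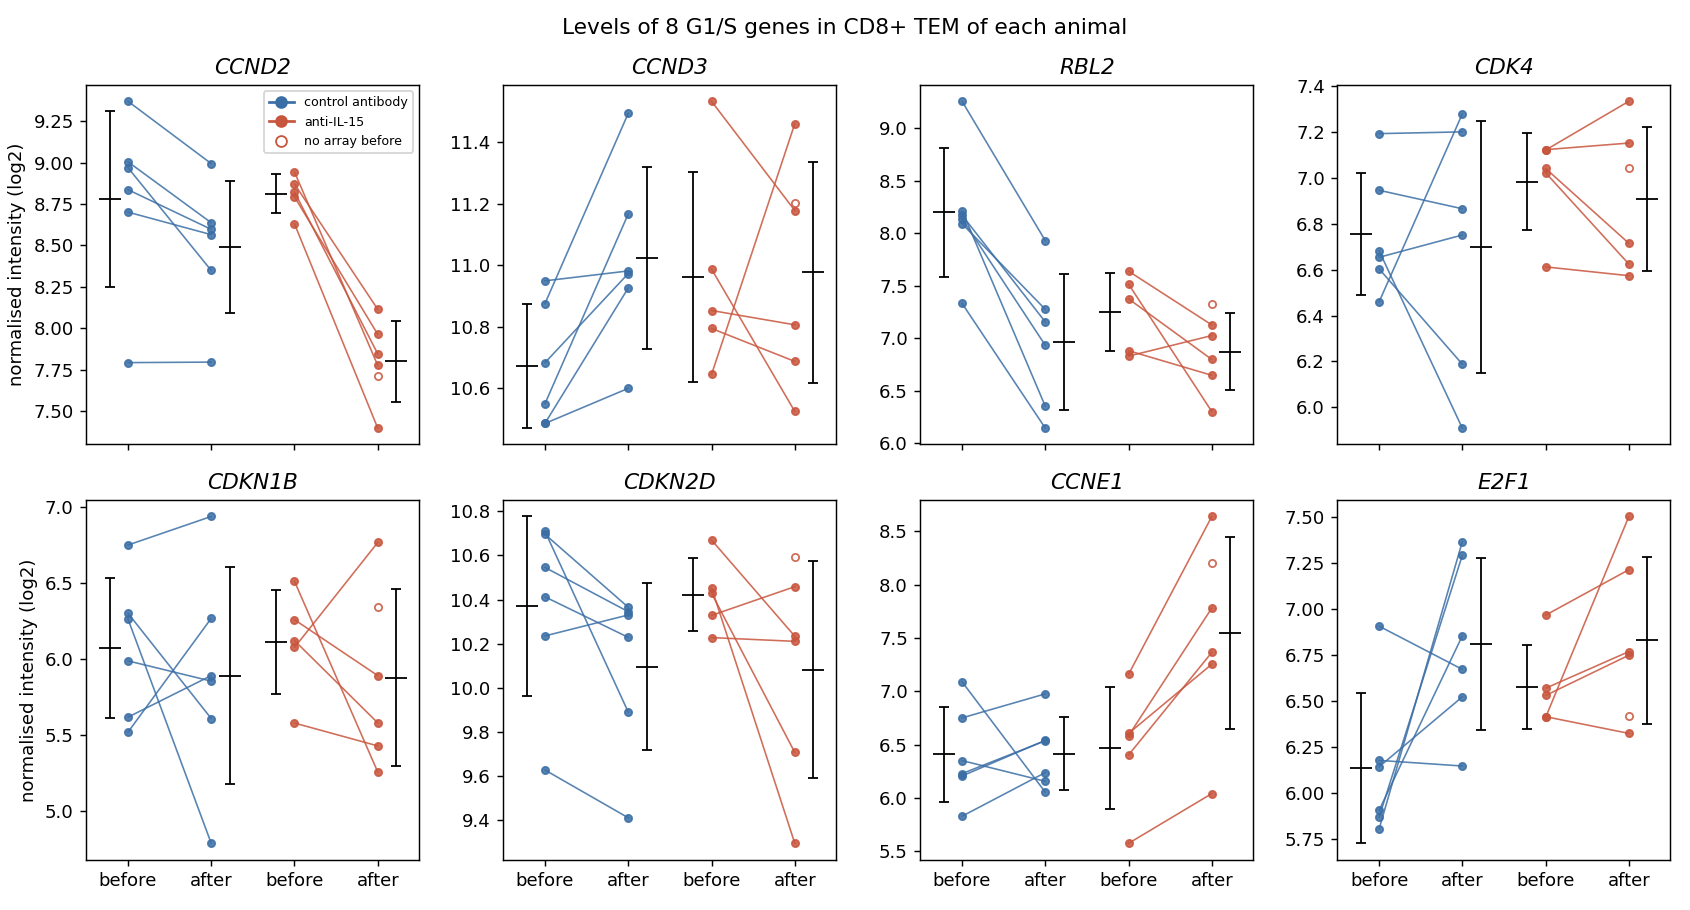
Normalised intensity (log2) of the 8 tested genes in every animal before and after the control antibody (blue) or anti-IL-15 (red), with lines joining the arrays of an animal, an open point for the animal without an array before treatment, and bars for the group mean and SD. The CCND2 levels after anti-IL-15 lie between 7.40 and 8.11, below all 5 levels before it, and RBL2 is lower after the control antibody in 6 of 6 animals. Each panel has its own scale.

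CDK4 encodes the kinase partner of the D-type cyclins that the array could read. Its level ran from 6.46 to 7.19 before the control antibody (median 6.67) and from 5.91 to 7.28 after it (median 6.81). Before anti-IL-15 it was 7.12, 7.04, 7.02, 6.61 and 7.12 in animals 1, 2, 4, 5 and 6, and it ran from 6.57 to 7.33 after (median 6.88). The groups overlapped, and the animals disagreed in direction within each arm, with 3 of 6 control animals and 2 of 5 anti-IL-15 animals higher. The fitted changes were -0.10 with anti-IL-15 (95% interval -0.58 to 0.37, limma adjusted p = 0.866) and -0.06 with the control antibody (95% interval -0.49 to 0.37, adjusted p = 0.914). With the log2 cell number as a covariate they were -0.41 and -0.23.

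CDKN1B encodes an inhibitor that binds cyclin and kinase complexes and is high in resting lymphocytes. The probe used ran from 5.52 to 6.75 before the control antibody (median 6.13) and from 4.79 to 6.94 after it (median 5.87). Before anti-IL-15 it was 6.26, 5.58, 6.12, 6.51 and 6.08 in animals 1, 2, 4, 5 and 6, and it ran from 5.26 to 6.77 after (median 5.74). The changes scattered widely, from -1.48 to 0.75 in the control arm and from -1.26 to 0.69 in the anti-IL-15 arm. The fitted changes were -0.32 with anti-IL-15 (SE 0.29, limma adjusted p = 0.626) and -0.18 with the control antibody (SE 0.26, adjusted p = 0.768). The second probe gave 0.07 (SE 0.22) and 0.00 (SE 0.20), so neither probe showed a change beyond the spread between animals.

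CDKN2D encodes an inhibitor of the INK4 family, which binds CDK4 and CDK6 themselves. Its level ran from 9.63 to 10.71 before the control antibody (median 10.48) and from 9.41 to 10.37 after it (median 10.28). Before anti-IL-15 it was 10.43, 10.67, 10.45, 10.23 and 10.33 in animals 1, 2, 4, 5 and 6, and it ran from 9.30 to 10.59 after (median 10.22). Levels were lower after treatment in 4 of 5 and in 5 of 6 animals of the anti-IL-15 and control arms. The fitted changes of -0.44 (SE 0.19, limma adjusted p = 0.267) and -0.28 (SE 0.17, adjusted p = 0.401) did not pass the test, and their difference was -0.16 (95% interval -0.69 to 0.36). With the log2 cell number as a covariate the changes were -0.02 and -0.03, and leaving out 1 animal gave -0.58 to -0.26 with anti-IL-15.

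CCNE1 encodes cyclin E1, the partner of CDK2 that follows the D-type cyclins at the start of S phase. Before anti-IL-15 its level was 6.58, 6.40, 7.16, 5.57 and 6.61 in animals 1, 2, 4, 5 and 6. After anti-IL-15 the level was 7.78, 7.37, 8.64, 6.04 and 7.25 in the same animals and 8.20 in animal 3. In the control arm it ran from 5.83 to 7.09 before (median 6.29) and from 6.05 to 6.98 after (median 6.39). After treatment 5 of 6 anti-IL-15 animals stood above every control animal, and animal 5 stood below them all.

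The CCNE1 change was 1.20, 0.96, 1.48, 0.47 and 0.65 in anti-IL-15 animals 1, 2, 4, 5 and 6, and 0.31, -1.04, 0.23, -0.19, 0.33 and 0.41 in control animals 1 to 6. The level was thus higher after treatment in 5 of 5 animals against 4 of 6, and the changes of the arms did not overlap. The fitted change with anti-IL-15 was 0.95 (SE 0.24, 1.93-fold), which narrowly missed the threshold (limma adjusted p = 0.0602, range 0.039 to 0.727 over 26 alternatives, of which 5 passed). With the control antibody it was 0.01 (95% interval -0.44 to 0.46, adjusted p = 0.992). The difference of the changes was 0.94 (SE 0.32) and did not pass the test after adjustment (adjusted p = 0.371). The second CCNE1 probe was detected on too few arrays to be tested.

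E2F1 encodes the activating E2F factor that is itself an E2F target. Its level was 5.87, 5.90, 6.91, 5.80, 6.14 and 6.18 before the control antibody in animals 1 to 6, and 7.29, 6.85, 6.67, 7.37, 6.52 and 6.15 after it. Before anti-IL-15 it was 6.53, 6.41, 6.97, 6.41 and 6.57 in animals 1, 2, 4, 5 and 6, and the 6 animals ran from 6.32 to 7.51 after (median 6.76). The control animals differed among themselves, with changes of 1.43, 0.95, -0.24, 1.57, 0.38 and -0.03, and 4 of 5 anti-IL-15 animals were higher after treatment. The fitted changes of 0.68 with the control antibody (SE 0.24, limma adjusted p = 0.121) and 0.33 with anti-IL-15 (SE 0.27, adjusted p = 0.577) did not pass the test, nor did their difference of -0.34 (adjusted p = 0.803). With the log2 cell number as a covariate the changes were 0.31 and -0.30.

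The probe for 28S ribosomal RNA, an RNA without a poly(A) tail, varied between arrays and moved in some of these animals. It was higher after treatment by 4.10 and 3.67 on the log2 scale in control animals 1 and 4, which had the 2 largest E2F1 changes, and by 3.66, 4.28 and 4.10 in anti-IL-15 animals 1, 2 and 5, whose E2F1 changes were 0.22, -0.09 and 1.09. In the other 6 paired animals the probe changed by -3.62 to 0.13. With this probe as a covariate the E2F1 change with the control antibody was 0.65 and passed the test (adjusted p = 0.0433, range 0.0433 to 0.835 over 26 alternatives), and RBL2 stood at -1.23 and CCND2 with anti-IL-15 at -0.90.

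**Figure D3:**
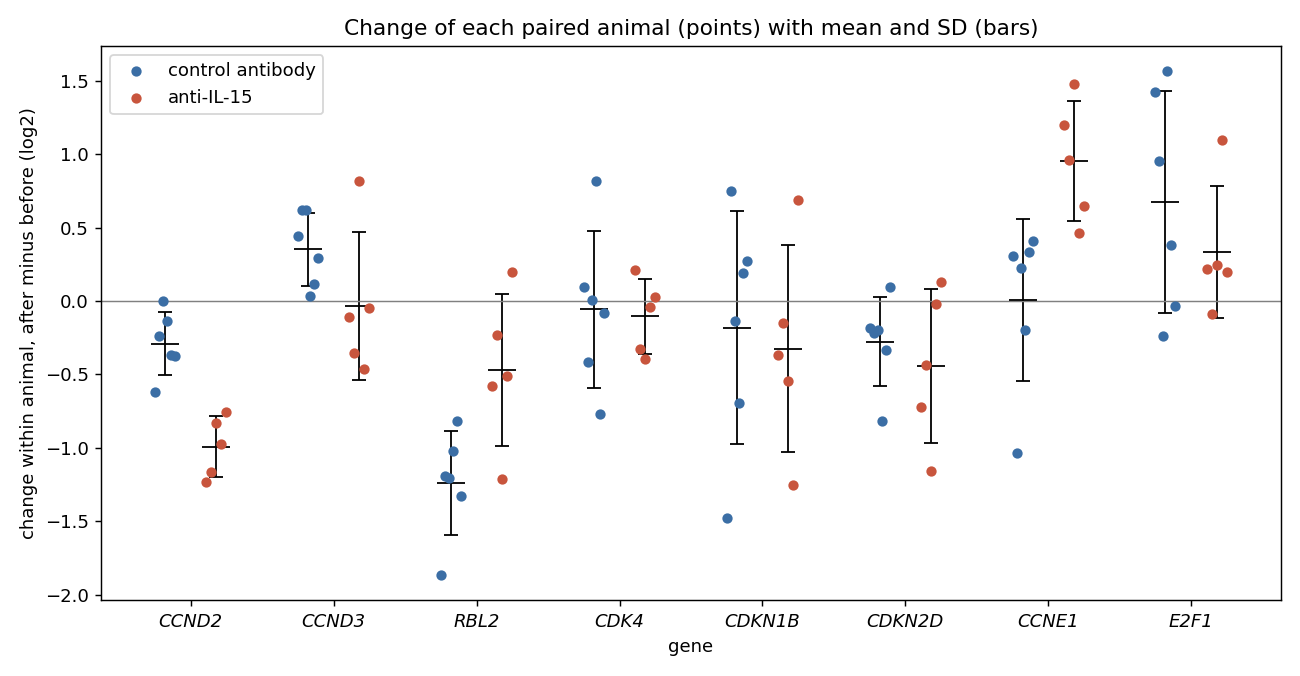
Change within each paired animal (log2 level after minus before treatment) of the 8 tested genes, with 6 control animals in blue, 5 anti-IL-15 animals in red, and black bars for the mean and SD. The arms do not overlap for CCND2 and CCNE1 and overlap for the other 6 genes. Over all genes the share without overlap is 1.08%, and CCND2 was chosen for its change with anti-IL-15.

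Counted over the 8 tested members, 1 passed the threshold with anti-IL-15 (CCND2, lower), where 0.816% of all 9190 genes did, 41 higher and 34 lower. With the control antibody 1 member passed (RBL2, lower), where 2.19% of all genes did, 66 higher and 135 lower. Those are the comparisons that chose the members, so nothing is read from these counts. None of the 8 passed for the difference of the changes by limma, where 0.0109% of genes did. At an unadjusted p under 0.05 it was 9.7% of all genes. CCNE1 was at an unadjusted p of 0.0082, and CCND2 and RBL2 are not counted, since their differences contain the changes they were chosen for. None passed for the arms before treatment, where the share over all genes was 0%. At an unadjusted p under 0.05 it was 10.5% of all genes and none of the 6 members other than CCND2 and RBL2, whose arrays before treatment also entered the values they were chosen for. The median change over the members was -0.21 after anti-IL-15 and -0.12 in the control arm, beside -0.05 and -0.04 over all genes. These medians include CCND2 and RBL2 with the values they were chosen for, so nothing is read from the medians either.

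The changes of the arms did not overlap for 2 members, CCND2 and CCNE1, and for 1.08% of all genes. All 6 control animals moved the same way for 2 members, CCND3 and RBL2, as they did for 10.7% of all genes. All 5 paired anti-IL-15 animals moved the same way for 2 members, CCND2 and CCNE1, as for 12.1% of all genes. CCND2 and RBL2 enter these counts through the values they were chosen for, so nothing is read from the counts.

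Beyond the members, the machinery around the restriction point showed 1 called gene, CCND1 with the control antibody, where 2.19% of all genes passed. Of 34 further genes of cyclins, kinases, inhibitors, E2F and DREAM subunits and the SKP2 ligase, 25 were tested. With anti-IL-15 none passed by limma, where 0.816% of all genes did. Of the 25, 9 were above 0 and the median was -0.08, beside -0.05 over all genes. The smallest p-values were those of CDKN2B and RBX1. CDKN2B, an INK4 inhibitor gene beside CDKN2A, was detected on 5 of 5 arrays before anti-IL-15 and on 0 of 6 after it, with measured means of 5.17 and 4.59. Its fitted change of -0.57 (SE 0.18) did not pass the test (limma adjusted p = 0.133). Control arrays showed CDKN2B above background in 3 of 6 animals at each time. Against the lowest detected signals (mean 4.94), the measured mean before anti-IL-15 was at least 1.17-fold higher. That ratio compares unpaired group means close to background and carries no error estimate, so no fall is read from it. RBX1, the RING subunit of cullin ligases, had a fitted change of 0.66 with anti-IL-15 (SE 0.27, adjusted p = 0.258). Its change with the control antibody was 0.79 (SE 0.25, limma adjusted p = 0.0856), and the difference of the changes was -0.13 (SE 0.37).

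With the control antibody, CCND1, the gene of the remaining D-type cyclin, rose by 1.00 on the log2 scale (SE 0.23, limma adjusted p = 0.0367) and was higher in 6 of 6 animals. Its mean went from 7.43 ± 0.64 to 8.42 ± 0.72 (SD, n = 6). The call held in 16 of 26 alternatives, with values of 0.75 to 1.16 and adjusted p-values of 0.00839 to 0.453. With anti-IL-15 the CCND1 change was -0.11 (SE 0.26, adjusted p = 0.876), higher in 2 of 5 animals. The difference of the changes was -1.11 (SE 0.35), which did not pass after adjustment (adjusted p = 0.348), so a difference between the arms was not shown. HBB and CD79B moved in the direction of CCND1 in the control arm, by fitted changes of 0.85 and 1.25, and their part in the result was not tested. The other tested B cell genes, CD79A and MS4A1, had -0.19 and 0.14 in that arm.

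Downstream of E2F, 14 of 20 listed genes of DNA synthesis and S phase were tested. With anti-IL-15 2 of them passed by limma, both higher, where 0.816% of all genes passed. Of the 14 fitted changes 13 were above 0, and their median was 0.41. Among all genes 57.6% lay below 0, and the median was -0.05. The list was chosen with earlier results of these data known, and whether 13 of 14 exceeds the share over all genes was not tested. TYMS, the gene of thymidylate synthase, rose by 1.53 (SE 0.26, limma adjusted p = 0.00873, range 0.00342 to 0.736 over 26 alternatives) and was higher in 5 of 5 animals. The TYMS call held in 21 alternatives. It was lost without animal as a block, with animal as a random block, and without anti-IL-15 animal 1 or 2. With the log2 cell number as a covariate TYMS was at 1.19 and CCNA2 at 1.13, and neither was called (adjusted p = 0.736 and 0.655). CCNA2, the gene of the S phase cyclin A2, rose by 0.92 (SE 0.21, adjusted p = 0.0427) and was higher in 5 of 5 animals, but it kept the call in only 9 of 25 alternatives, with values of 0.37 to 1.14 and adjusted p-values of 0.0246 to 0.655.

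With the control antibody none of the 14 passed by limma, 6 were above 0 and the median was -0.05. The smallest p-values were those of CDK1 (-0.48, SE 0.22, adjusted p = 0.226) and RFC4 (0.47, SE 0.23, adjusted p = 0.273). For the difference of the changes, 51.5% of all genes lay below 0, with a median of -0.01, and 0.0109% passed. Of the 14 listed genes 11 were above 0, with a median of 0.57, and none passed. The smallest p-values there were those of TYMS, with 1.27 (SE 0.35, adjusted p = 0.292), and of MCM5, a subunit of the replicative helicase, with 1.14 (SE 0.32, adjusted p = 0.295). With anti-IL-15, CCNE1 had the sign of this list, and CCND2, upstream in the pathway, had the opposite sign. CCND2 was chosen for that value, so nothing is read from this contrast.

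Of 10 regulators that keep T cells quiescent, 8 were tested and none passed in either arm by limma. Their fitted changes were below 0 for 7 of 8 with each antibody. The medians were -0.19 after anti-IL-15 and -0.20 in the control arm. Among all 9190 genes 57.6% and 55.2% lay below 0, in the same order, and the medians were -0.05 and -0.04. Whether 7 of 8 exceeds those shares was not tested. KLF2, a transcription factor of resting T cells, had a change of -0.47 with anti-IL-15 (SE 0.13, limma adjusted p = 0.105) and was lower in 5 of 5 animals. With the control antibody KLF2 had -0.27 (SE 0.12, adjusted p = 0.228) and was lower in all but 1 animal. FOXO1, another such factor, had -0.37 with anti-IL-15 (SE 0.20, adjusted p = 0.399) and -0.28 with the control antibody (SE 0.19, adjusted p = 0.443). TSC1, which restrains mTORC1, had -0.22 with anti-IL-15 (SE 0.21, adjusted p = 0.653) and -0.43 with the control antibody (SE 0.19, adjusted p = 0.209).

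**Figure D4:**
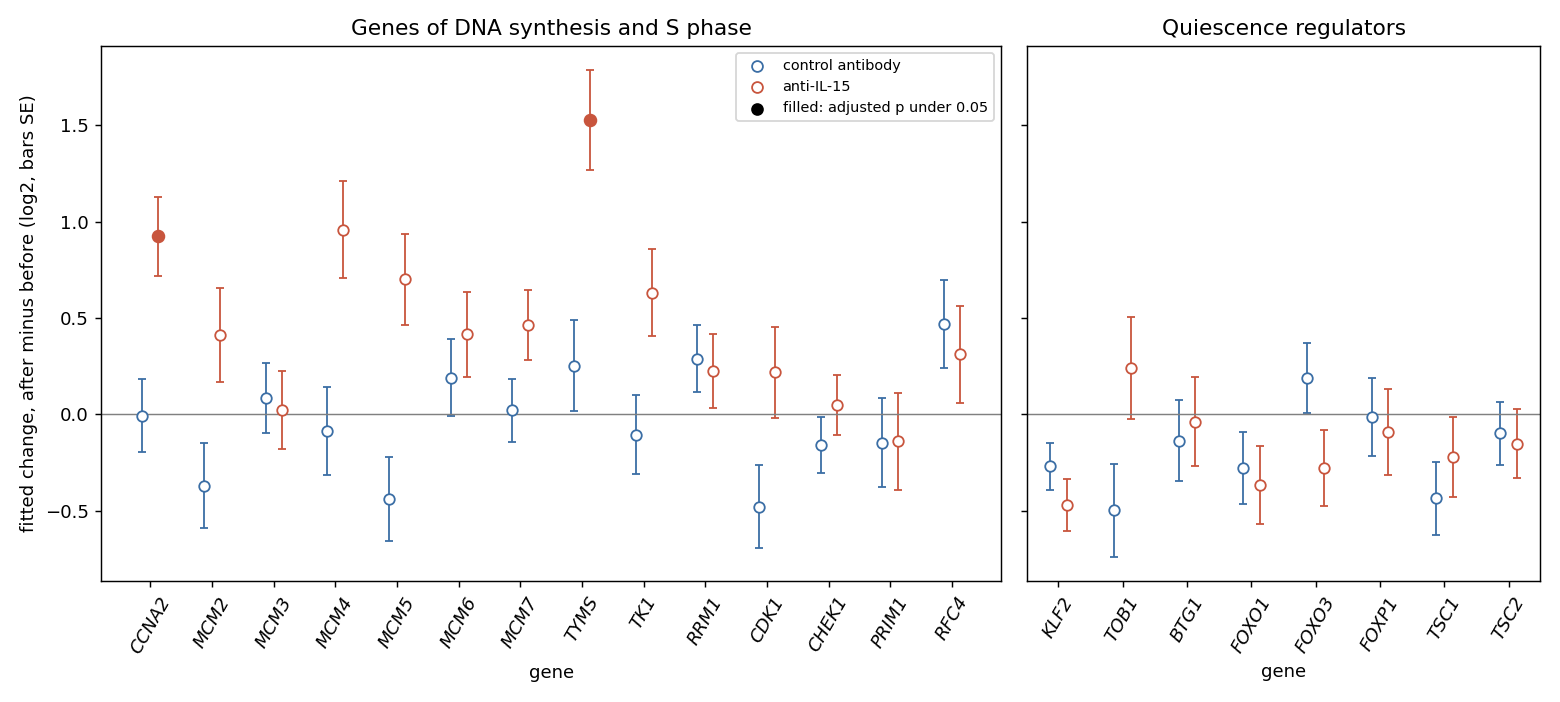
Fitted change after treatment (log2, bars SE) of 14 genes of DNA synthesis and S phase and of 8 quiescence regulators, with the control antibody in blue and anti-IL-15 in red, and filled points where the limma adjusted p is under 0.05. TYMS and CCNA2 with anti-IL-15 are the filled points, at 1.53 and 0.92, and 7 of 8 quiescence regulators lie below 0 in each arm. Among all genes the share below 0 is 57.6% in the anti-IL-15 arm and 55.2% in the control arm. The share with an adjusted p under 0.05 is 0.816% and 2.19%, in the same order.

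The genes whose changes were most like those of CCND2 over the 11 paired animals were SOCS2 (Pearson r = 0.92), TNRC6C (0.91), EDARADD (0.90), HELZ (0.90) and EIF4ENIF1 (0.89), and the least like were AKAP8L (-0.91), UFC1 (-0.89) and C17orf100 (-0.87). The CCND2 changes fall into separate ranges by arm, so within the 6 control animals alone the values were 0.94, 0.70, 0.91, 0.70 and 0.70 for the first 5 genes, and -0.36, -0.50 and -0.28 for the other 3. SOCS2 was detected on only 8 of 23 arrays, C17orf100 on 12 and, in the list for RBL2, CCDC90B on 15, so on the other arrays their values were not above background, and the other named genes were detected on 20 to 23. For BCL2, the gene of an anti-apoptotic protein, r was 0.76 over 11 animals and -0.26 within the control arm. For RBL2 the most alike were MKRN2 (0.98), ATP5F1A (0.93), GARS1 (0.90), HADHB (0.90) and PPP1CC (0.90), with 0.93, 0.69, 0.79, 0.74 and 0.78 within the control arm, and the least alike were CCDC90B (-0.95), FASTK (-0.94) and UBAC2 (-0.92). These values were picked as the extremes of 9190 genes on shared arrays and are a description only. CCND2 and RBL2 changes had r = -0.51 over all 11 animals, 0.59 within the control arm and 0.05 within the anti-IL-15 arm.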

How the data were processed

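Total RNA of sorted CD8+ TEM was hybridised to Illumina bead arrays after amplification from equal input, per the labels' protocols. The authors deposited 1 linear intensity per probe and array, neither background-subtracted nor normalised by its values, with a detection p-value that the authors deposited beside it. A table of log2 values deposited by the authors served as an alternative. The submitters' processing notes name limma, its version not given in the sources used here.

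Running limma 3.58.1 under R 4.3.3, neqc subtracted background by the normexp model (offset 16, control beads inferred through the detection p-values), equalised the quantiles and took log2. Probes detected (p under 0.05) on at least 5 of 23 arrays and without a 0 intensity were kept, 15744 of 47230, of which 11131 had 1 gene symbol, 1 several and 4612 none. The kept probe with the highest mean stood for its gene, which gave 9190 genes. The number of arrays limits the precision.

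A single limma model of 23 arrays, with each animal as a block, gave the changes, and a model of 11 arrays compared the arms before treatment, with Benjamini-Hochberg adjustment over all 9190 genes at 0.05. Fold changes are differences of log2 values after the offset, which understates those of dim probes. Arrays were paired by the donor label, and deviations of the same animal correlated at 0.05 to 0.51 (median 0.29), while different animals of an arm had a median of -0.06. The fits were tested on simulated data. Members, gene lists and the naming rule were chosen with earlier results of these data known. The rule names all members, up to 6 further genes per list past the threshold or otherwise the 2 with the smallest p, marker genes that moved, and the 5 most and 3 least alike genes for CCND2 and RBL2. Alternatives changed the correction, scaling, filter, block, trend, weights, covariates and animals, and the 28S covariate and separate fits of each arm were added after seeing the data.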

Additional observations from a re-analysis of the deposited data

Results flagged for a closer look

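In 48 sets of 5 or 6 values (levels per group and changes per arm of the 8 tested members), 4 held a value set apart from the rest of its group by Dixon's test, where chance gives about 1 in 20. The CDK4 level of anti-IL-15 animal 5 before treatment was 6.61, against 7.02 to 7.12 in the other 4 animals. The E2F1 change of anti-IL-15 animal 5 was 1.09, against -0.09 to 0.25 in the others, and the 28S probe was higher by 4.10 in that animal. The E2F1 level of control animal 3 before treatment was 6.91, against 5.80 to 6.18 in the others. The E2F1 level of anti-IL-15 animal 4 before treatment was 6.97, against 6.41 to 6.57 in the others.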

How the results depend on the processing

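Over 26 alternatives the CCND2 change with anti-IL-15 ran from -1.10 to -0.79 and the RBL2 change with the control antibody from -1.38 to -0.86. The members were chosen for these values, so neither the ranges nor the counts of members called support them. Without the replicate block the calls were 1 of 9190 genes with anti-IL-15, 23 with the control antibody and 0 for the difference, and 0 members in each. As a random block, animal gave 15 with anti-IL-15 and 0 for the difference. Other settings moved the 75 calls with anti-IL-15 to 49 with probes detected on all arrays, 27 with no filter, 41 over all kept probes, 34 with no trend, 167 with array weights, 2 with cell number and 18 with the 28S probe as covariate. They moved the 201 control calls to 350 under 75th percentile scaling, 71 with no filter, 339 over all kept probes, 105 with no trend, 0 with cell number, 868 with the 28S probe, and 24 with each arm fitted alone. The 1 call for the difference became 2 with no background correction, the authors' table, no trend, array weights or cell number, and 18 with the 28S probe.

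Members called with anti-IL-15 numbered 2 with no background correction, the authors' table, probes detected on all arrays or array weights, CCNE1 being the addition, and 0 with cell number. With the control antibody there were 0 with cell number and 2 with the 28S probe, E2F1 being the addition. Leaving out 1 animal gave 5 (without anti-IL-15 animal 1) to 164 calls with anti-IL-15 and 0 to 2 members, 0 (without control animal 1) to 367 calls with the control antibody and 0 to 1 members, 0 to 2 for the difference and 0 to 1 before treatment. Higher and lower calls with anti-IL-15 stood at 30 and 36 under 75th percentile scaling, beside 41 and 34, and with the control antibody at 71 and 279, beside 66 and 135.

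No called value changed sign. Small uncalled values did, and the cause was not tested. CCND3 with anti-IL-15 was 0.0140 without and 0.00782 with a random replicate block, 0.0952 with the 28S probe, and -0.243 to 0.0767 leaving out 1 animal. CDKN1B with anti-IL-15 was 0.0697 for its other probe, 0.0920 with cell number and 0.0440 with the 28S probe. E2F1 with anti-IL-15 was -0.298 with cell number. With the control antibody CDK4 was -0.233 to 0.0857 leaving out 1 animal, CDKN1B 0.00256 for its other probe, 0.0610 with cell number and -0.368 to 0.0770 leaving out 1 animal, and CCNE1 -0.00199 with no background correction, -0.00193 in the authors' table, -0.153 under 75th percentile scaling and -0.0726 to 0.217 leaving out 1 animal. For the difference CDK4 was 0.0103 under 75th percentile scaling, 0.0896 with array weights and -0.190 to 0.129, CDKN1B 0.0672 for its other probe, 0.0310 with cell number, 0.201 with the 28S probe and -0.402 to 0.0898, and CDKN2D 0.00897 with cell number and -0.307 to 0.0147. Before treatment CCND2 was -0.0435 under 75th percentile scaling, -0.0650 with array weights, -0.00681 with the 28S probe and -0.164 to 0.151, CDKN1B -0.0339 under that scaling, -0.195 for its other probe, -0.0241 with array weights and -0.0748 to 0.172, CDKN2D -0.0979 to 0.118, and CCNE1 -0.0393 under 75th percentile scaling and -0.117 to 0.279.

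Signal over background limits what can be said of CDK6 and RB1, which were detected on 0 and 2 of 23 arrays, and of the dim CDKN1B probes. The comparison of the arms rests on 5 and 6 pairs, and the cell number and the treatment moved together in the anti-IL-15 arm.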
